A study of Mus musculus with 89 samples.

Results

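The genes for the chemokine receptor Ccr2 and for 4 ligands of its chemokine family, Ccl2, Ccl7, Ccl8 and Ccl12, were followed in mouse lung across copper oxide materials, doses and allergen challenge. Array probes were assigned to the 5 genes through the RefSeq accession that each probe carries, and each gene was represented by 1 probe. They were 5 of 22911 genes measured with a RefSeq name.

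CCR2 is a chemokine receptor of inflammatory monocytes and guides their exit from bone marrow and their entry into injured tissue. CCL2, CCL7 and CCL12 bind CCR2, and CCL12 exists in mice but not in humans. Mouse CCL8 belongs to the same monocyte chemoattractant family and is also known as an agonist of CCR8, a receptor of type 2 helper T cells. In lung, these ligands are made by macrophages, epithelium and fibroblasts after injury, and they are also induced in allergic airway inflammation.

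All mice were female BALB/c, 6 to 8 weeks of age, and all had been sensitized with ovalbumin (OVA) in alum, the PBS-challenged controls included. On 4 consecutive days they received PBS or OVA by oropharyngeal aspiration, alone or with core CuO or CuO carrying carboxyl (CuO COOH), amine (CuO NH3) or polyethylene glycol (CuO PEG) groups at 2.5, 10 or 40 µg/mouse. Lungs were lavaged before tissue was taken, 24 h after the last administration, so cells recovered by lavage were in part removed. Doses were equal in mass of material, not in copper. The resulting 26 groups held 89 samples, each a pool of RNA from 2 samples: 7 in the PBS group, 8 in the OVA group, 4 each in the CuO NH3 10 and CuO PEG 10 groups of PBS-challenged mice and 3 in each other group. The methods call the pools independent, but no label ties them to mice, and p-values measure the spread between these samples.

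Of 46 two-colour arrays, 43 held 2 samples. Median foreground intensities ran from 55 to 121 in Cy3 and from 67 to 180 in Cy5, and no spot was saturated. The number of arrays, not a read depth, limits precision. CuO and CuO COOH samples lay on slides 1 to 3 and CuO NH3 and CuO PEG samples on slides 4 to 6. Controls of both kinds lay on each set. The probes of Ccl2, Ccl8, Ccl12 and Ccr2 were well above background in 89 of 89 samples, and that of Ccl7 in 88. Alveolar and airway epithelial markers (8 genes, among them Sftpc, surfactant protein C, and Scgb1a1, a club cell secretory protein) averaged between 13.38 and 14.09 on the log2 scale over all samples.

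The 4 ligand genes lie in the CC chemokine cluster of chromosome 11. Upstream sequence was available for Ccl12, Ccl8 and Ccr2, 3 of the 5 genes. The 250 bases before the start of Ccl12 and Ccl8, the ligand genes among these, are shown. Both are on the plus strand of GRCm38.p6, from RefSeq, at chr11:82101595-82101844 and chr11:82114935-82115184. Capitals mark TATAAAA.
Ccl12: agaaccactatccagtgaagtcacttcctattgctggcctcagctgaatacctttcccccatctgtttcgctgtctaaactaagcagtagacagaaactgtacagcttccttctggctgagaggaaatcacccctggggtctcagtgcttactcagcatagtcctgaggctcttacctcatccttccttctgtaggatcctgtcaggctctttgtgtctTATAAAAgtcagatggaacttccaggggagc
Ccl8: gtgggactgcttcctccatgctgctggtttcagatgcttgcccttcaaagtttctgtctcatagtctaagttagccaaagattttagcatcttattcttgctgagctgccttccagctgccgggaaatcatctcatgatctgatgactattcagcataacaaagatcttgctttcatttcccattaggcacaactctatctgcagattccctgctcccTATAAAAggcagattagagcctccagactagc

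Counted from the gene start, TATAAAA began at -31 in Ccl12 and at -32 in Ccl8, and on either strand it stood in 4.98% of 32851 upstream regions of this length. The longest runs that the 2 sequences shared were 8 bases long, and there were 3 of them: ggaaatca, tcagcata and tataaaag. Of these, ggaaatca began at -128 in both genes. None of the NF-kB motif (45.8% of all regions), the STAT6 motif (5.85%), the interferon-gamma letters TTCNNNGAA (7.02%), the interferon response motif (2.98%) or the AP-1 letters TGANTCA (6.75%) was found on either strand of the Ccl12, Ccl8 or Ccr2 window, which says only that these letters are not in these windows.

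Levels are given as log2 of the quantile-normalized median intensity after removal of dye, slide and array position effects, and are comparable between groups of 1 gene but not between genes. Fold changes come from a limma model over all samples with dye and array as terms, so that they rest on differences within arrays. A gene was called when its Benjamini-Hochberg adjusted p over all genes was under 0.05 and its log2 fold change beyond 0.58 in size (1.5-fold). Because the level adjustment and the model differ, a difference of 2 group means need not equal the fitted fold change. The second model, with slide and position in place of array, gives the same scale as the levels, and its values are given below beside the results it changed.

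OVA challenge alone raised all 5 genes. The PBS and OVA controls did not overlap for any of them on the adjusted scale, and 3.74% of all genes were called higher in this comparison. Ccl8 differed most. Its lowest, median and highest adjusted levels were 8.09, 8.61 and 9.84 in the 7 PBS samples and 14.35, 15.05 and 16.30 in the 8 OVA samples, and the fitted log2 fold change was 5.91 (SE 0.48, adjusted p = 1.06e-08), or 60.2-fold. No OVA sample came near the PBS samples.

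Ccl7, a broad attractant of monocytes and eosinophils, ran from 6.35 to 7.69 (median 6.5) in PBS samples and from 9.30 to 11.45 (median 10.35) in OVA samples, a log2 fold change of 3.53 (SE 0.40, adjusted p = 1.29e-06). Ccl12 ran from 6.53 to 7.84 (median 7.08) and from 9.52 to 11.21 (median 10.49), a log2 fold change of 3.22 (SE 0.30, adjusted p = 5.87e-08). Ccl2, the prototype ligand of CCR2, ran from 7.95 to 9.75 (median 8.84) and from 10.80 to 12.65 (median 11.43), a log2 fold change of 2.89 (SE 0.40, adjusted p = 1.77e-05). These 3 ligands rose 7.39-fold to 11.6-fold.

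The receptor Ccr2 ran from 7.73 to 8.09 (median 7.93) in PBS samples and from 9.11 to 9.89 (median 9.60) in OVA samples, a log2 fold change of 1.61 (SE 0.17, adjusted p = 5.85e-07), or 3.06-fold. Without adjustment, the Ccr2 controls overlapped, because their level differed between slide sets: PBS controls lay between 8.16 and 8.54 on slides 1 to 3 and between 7.33 and 7.82 on slides 4 to 6, and OVA controls between 9.89 and 10.37 and between 8.46 and 9.23. Within each slide set the OVA controls still stood above the PBS controls. In whole lung RNA, more cells of a type and more RNA per cell cannot be told apart.

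**Figure D1:**
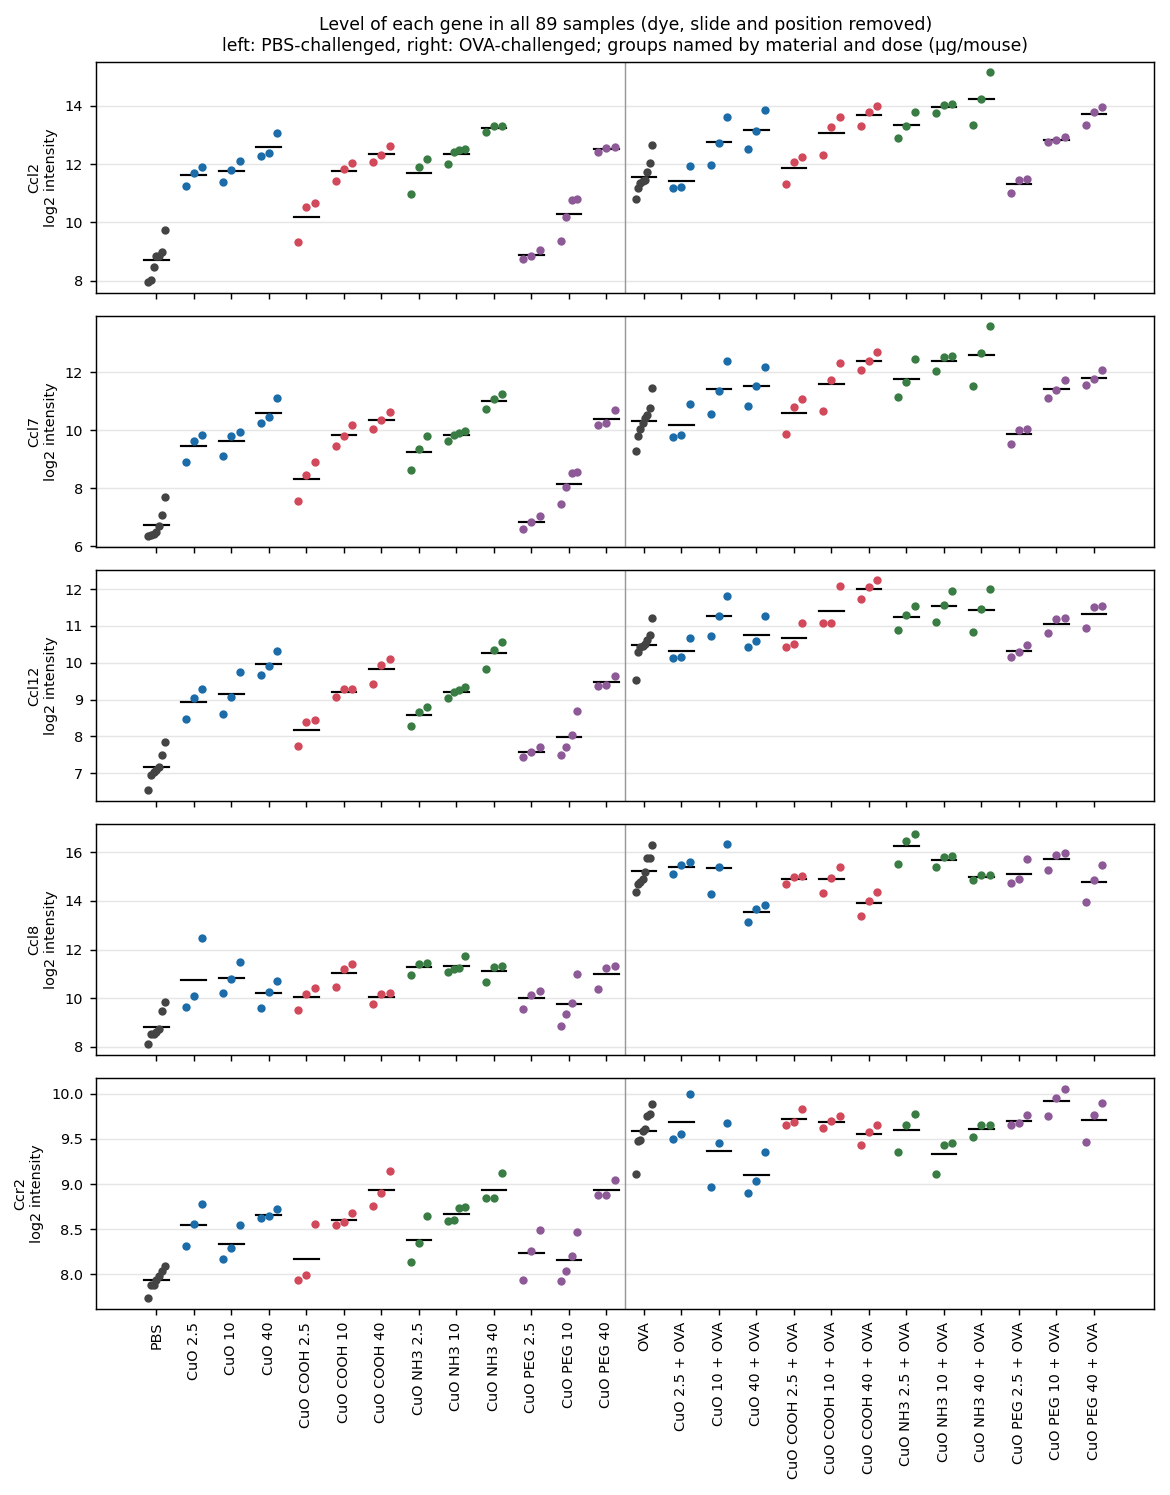
Adjusted log2 intensity (vertical axis) of the 5 genes in each of the 89 samples, by group of material and dose in µg/mouse (horizontal axis), with PBS-challenged mice left and OVA-challenged mice right of the grey line. Points are samples, short black lines are group means, and colours are materials (black for controls); PBS controls of Ccl8 lie between 8.09 and 9.84 and OVA controls between 14.35 and 16.30.

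The question put by the exposed, PBS-challenged groups was which material and dose altered lung expression without allergen. Ccl2 and Ccl7 were each called higher in 11 of 12 such groups, Ccl12 in 9, Ccr2 in 6 and Ccl8 in 2. The group in which none of the 5 was called was CuO PEG 2.5. The 12 comparisons share the 7 PBS controls. Among all genes, measured by those called higher, core CuO raised 0.812%, 2.59% and 8.00% at 2.5, 10 and 40 µg/mouse, CuO COOH raised 0.349%, 2.52% and 6.06%, CuO NH3 raised 0.860%, 2.60% and 7.31%, and CuO PEG raised 0%, 0.397% and 1.74%. For CuO PEG 2.5, limma gave an unadjusted p under 0.05 for 1005 genes.

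Ccl2 was at 11.25, 11.69 and 11.90 in the CuO 2.5 samples, at 11.38, 11.80 and 12.12 in the CuO 10 samples and at 12.29, 12.38 and 13.06 in the CuO 40 samples. All 9 lay above the highest PBS control (9.75). The fitted log2 fold changes were 3.47 (SE 0.59, adjusted p = 0.00287), 4.35 (SE 0.69, adjusted p = 0.000568) and 5.10 (SE 0.66, adjusted p = 8.59e-06), the last being 34.3-fold. With slide and position in place of array, the values at 10 and 40 µg/mouse were 3.07 and 3.87 and both calls remained.

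After CuO NH3, Ccl2 was at 10.99, 11.91 and 12.18 at 2.5 µg/mouse, at 11.99, 12.40, 12.49 and 12.52 at 10 µg/mouse, and at 13.09, 13.32 and 13.32 at 40 µg/mouse. These 10 samples also lay above every PBS control, with log2 fold changes of 3.38 (SE 0.55), 3.97 (SE 0.48) and 4.58 (SE 0.47) and adjusted p of 0.00268, 9.80e-06 and 1.17e-07. The call at 2.5 µg/mouse was lost with controls of the same slides (adjusted p = 0.0776). CuO COOH gave 9.32, 10.54 and 10.67 at 2.5 µg/mouse, 11.43, 11.82 and 12.03 at 10 µg/mouse and 12.09, 12.31 and 12.61 at 40 µg/mouse. Its lowest dose overlapped the PBS controls.

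The fitted Ccl2 change at CuO COOH 2.5 was 3.54 (SE 0.71, adjusted p = 0.0274), but it was 1.48 (SE 0.47, adjusted p = 0.178) with slide and position terms, which ended the call, as did 75th percentile scaling (adjusted p = 0.188). At the 2 higher doses of CuO COOH, the change was 4.52 (SE 0.71) and 4.66 (SE 0.64), against 3.06 and 3.64 with slide and position terms, and both models called it.

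With CuO PEG, Ccl2 was called at the 2 higher doses. It was at 8.75, 8.86 and 9.05 in the CuO PEG 2.5 samples, within the range of the PBS controls, at 9.36, 10.19, 10.78 and 10.82 in the CuO PEG 10 samples and at 12.43, 12.56 and 12.59 in the CuO PEG 40 samples. The log2 fold change was -0.32 (95% interval -1.66 to 1.01), 1.72 (SE 0.33, adjusted p = 0.00901) and 4.53 (SE 0.55, adjusted p = 4.07e-05). At 40 µg/mouse the level therefore overlapped that of CuO 40, and 1 of 4 CuO PEG 10 samples lay below the highest PBS control. With slide and position terms the CuO PEG 40 value was 3.83, and at CuO PEG 2.5 the sign turned to 0.18. The call at CuO PEG 10 was lost with 75th percentile scaling (1.61, adjusted p = 0.162) and with the replicate number as a block (0.76, adjusted p = 0.0704). The block fit holds no slide term and sets CuO PEG samples largely against controls of the other slide set. Exposure and slide set cannot be told apart in it.

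Ccl7 was called in the same 11 groups as Ccl2. Its adjusted levels were 8.90, 9.62 and 9.84 after CuO 2.5, 9.11, 9.82 and 9.94 after CuO 10, and 10.27, 10.45 and 11.13 after CuO 40, all above the highest PBS control (7.69). The log2 fold change rose from 3.12 (SE 0.59) over 4.56 (SE 0.70) to 5.55 (SE 0.67, adjusted p = 3.41e-06), a 46.7-fold difference at the highest dose. Under slide and position terms, the values at 10 and 40 µg/mouse were 2.88 and 3.88, and both were called.

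For the modified materials the Ccl7 change was 3.77, 4.80 and 4.75 after CuO COOH, 3.14, 3.38 and 4.57 after CuO NH3, and -0.66, 1.41 and 4.40 after CuO PEG, with standard errors from 0.33 to 0.72. The 3 samples at CuO COOH 2.5 (7.56, 8.47 and 8.91) and the 4 samples at CuO PEG 10 (7.46, 8.05, 8.54 and 8.56) each reached into the range of the PBS controls. At CuO COOH 2.5 the adjusted p was 0.0195, and with slide and position terms the value was 1.58 (adjusted p = 0.186) and was not called. It was also lost with 75th percentile scaling (adjusted p = 0.0856) and with the replicate number as a block (1.31, adjusted p = 0.163). The CuO PEG 2.5 samples lay at 6.60, 6.86 and 7.04, and the direction there turned to 0.09 with slide and position terms. The call at CuO PEG 10 was lost with 75th percentile scaling (adjusted p = 0.266), with controls of the same slides (adjusted p = 0.113) and with normexp background correction (adjusted p = 0.0759), and that at CuO NH3 2.5 with controls of the same slides (adjusted p = 0.131). Values that moved past 1.5-fold with slide and position terms without loss of a call were 3.10 and 3.62 at CuO COOH 10 and 40, 2.53 at CuO NH3 2.5 and 3.64 at CuO PEG 40.

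Ccl12 rose after each material at 40 µg/mouse. CuO 40 samples were at 9.68, 9.90 and 10.33, CuO COOH 40 samples at 9.43, 9.94 and 10.09, CuO NH3 40 samples at 9.84, 10.36 and 10.56, and CuO PEG 40 samples at 9.37, 9.40 and 9.63, while the highest PBS control was at 7.84. The log2 fold changes were 3.30 (SE 0.50, adjusted p = 5.16e-05), 2.98 (SE 0.48, adjusted p = 0.000155), 3.31 (SE 0.35, adjusted p = 2.05e-07) and 2.70 (SE 0.41, adjusted p = 0.000393). At the lowest dose, Ccl12 was called after CuO (1.96) and CuO NH3 (1.80), and both calls were lost with 75th percentile scaling (adjusted p = 0.185 and 0.147) and with controls of the same slides (adjusted p = 0.0651 and 0.131). It was not called after CuO COOH (2.26, adjusted p = 0.0747; 1.03 with slide and position terms), CuO PEG 2.5 (0.06) or CuO PEG 10 (0.72, adjusted p = 0.232).

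Ccl8 was called in 2 of the 12 groups. Its log2 fold changes in PBS-challenged mice ran from 0.08 to 3.57 with standard errors of 0.40 to 0.85, and 10 of 12 had an unadjusted p under 0.05, but the 2 called were CuO NH3 10 (2.64, SE 0.57, adjusted p = 0.0057) and CuO NH3 40 (2.62, SE 0.56, adjusted p = 0.00105). The CuO NH3 10 samples lay at 11.07, 11.20, 11.24 and 11.72 and the CuO NH3 40 samples at 10.68, 11.30 and 11.34, above every PBS control. Core CuO 40 gave 9.61, 10.25 and 10.71, which overlapped the PBS controls, and a change of 1.66 (95% interval -0.01 to 3.34).

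One CuO 2.5 sample of Ccl8 was at 12.47 and the other two at 9.63 and 10.09. The count of 2 called groups became 8 with slide and position terms and 10 with array as a random block, and it was 1 without CuO NH3 10 replicate 4, CuO NH3 40 replicate 1, CuO PEG 10 replicate 4 or PBS replicate 5 and 6 without CuO 10 replicate 1 or CuO 40 replicate 1. With slide and position terms, Ccl8 was 2.01 at CuO 10 (called), 1.21 at CuO COOH 2.5 (not called), 1.16 at CuO PEG 2.5 (not called) and 2.15 at CuO PEG 40 (called). In none of the 12 groups did a Ccl8 sample reach the lowest OVA control (14.35).

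The receptor Ccr2 changed by 0.16 to 1.35 on the log2 scale. It was called after CuO 40 (0.86, SE 0.29, adjusted p = 0.042), CuO COOH 10 (1.13, SE 0.31, adjusted p = 0.0403), CuO COOH 40 (1.35, SE 0.28, adjusted p = 0.00186), CuO NH3 10 (0.78, SE 0.21, adjusted p = 0.0283), CuO NH3 40 (1.08, SE 0.20, adjusted p = 0.00032) and CuO PEG 40 (1.2, SE 0.24, adjusted p = 0.00503). CuO 40 samples were at adjusted levels of 8.62, 8.64 and 8.72, CuO COOH 40 samples at 8.76, 8.90 and 9.14, CuO NH3 40 samples at 8.84, 8.84 and 9.12 and CuO PEG 40 samples at 8.88, 8.88 and 9.05. The 7 PBS controls ended at 8.09, so none of these 12 samples overlapped them, while without adjustment the CuO NH3 40 and CuO PEG 40 samples did. At CuO COOH 2.5 the value was 0.91 (not called), against 0.23 with slide and position terms.

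The count of 6 groups called for Ccr2 was sensitive to single samples. It was 2 without PBS replicate 2 or OVA replicate 3, and 3 without PBS replicate 3, PBS replicate 5, CuO NH3 40 replicate 1 or CuO COOH 10 + OVA replicate 3. It was also 2 with 75th percentile scaling and 2 when each group was set against the controls of its own slides. With the replicate number as a block, the calls were lost at CuO NH3 10 (-0.08, adjusted p = 0.761), CuO NH3 40 (0.15, adjusted p = 0.542) and CuO PEG 40 (0.23, adjusted p = 0.401). This block fit holds no slide term and sets CuO NH3 and CuO PEG samples largely against controls of the other slide set. Unadjusted Ccr2 averaged 8.33 in PBS controls of that other set and 7.63 in PBS controls on the slides of these materials. Exposure and slide set therefore cannot be told apart in these losses.

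**Figure D2:**
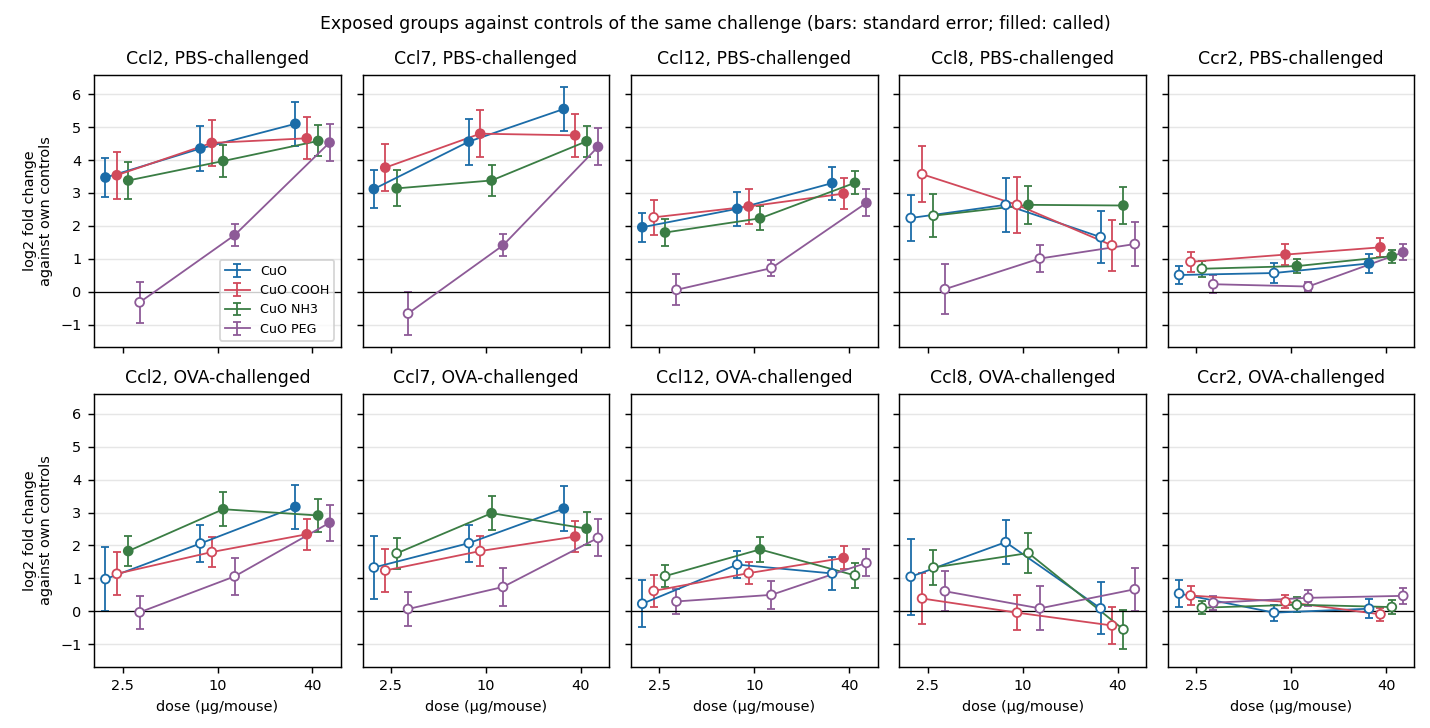
Fitted log2 fold change (vertical axis) of the 5 genes against controls of the same challenge at 2.5, 10 and 40 µg/mouse (horizontal axis), with PBS-challenged mice in the upper row and OVA-challenged mice in the lower row. Bars are standard errors, colours are materials and filled points were called; in PBS-challenged mice Ccl2 rises from -0.32 to 4.53 over the CuO PEG doses and from 3.47 to 5.10 over the CuO doses.

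In OVA-challenged mice the question was whether the materials altered expression on top of allergen. Ccl2 was called higher in 6 of 12 exposed groups, Ccl7 in 4, Ccl12 in 2, and Ccl8 and Ccr2 in 0. These 12 comparisons share the 8 OVA controls. For Ccl8, 3 of 12 values had an unadjusted p under 0.05 in limma, and for Ccr2, 0 of 12. Among all genes, measured by those called higher, core CuO raised 0%, 0.210% and 1.03% at 2.5, 10 and 40 µg/mouse, CuO COOH raised 0.0175%, 0.436% and 2.2%, CuO NH3 raised 0.445%, 1.45% and 2.06%, and CuO PEG raised 0%, 0% and 0.384%. An unadjusted p under 0.05 was found for 918, 1780 and 1289 genes in the 3 comparisons with none called, CuO 2.5, CuO PEG 2.5 and CuO PEG 10.

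Ccl2 was at 13.34, 14.23 and 15.15 in CuO NH3 40 + OVA samples, 13.76, 14.03 and 14.06 in CuO NH3 10 + OVA samples and 12.88, 13.32 and 13.78 in CuO NH3 2.5 + OVA samples. All 9 lay above the highest OVA control (12.65), with log2 fold changes of 2.91 (SE 0.51, adjusted p = 0.00134), 3.10 (SE 0.51, adjusted p = 0.00196) and 1.83 (SE 0.45, adjusted p = 0.0475). The call at CuO NH3 2.5 + OVA was lost with controls of the same slides (1.69, adjusted p = 0.151) and with 75th percentile scaling (adjusted p = 0.361). Under slide and position terms the value at CuO NH3 10 + OVA was 2.37 and stayed called.

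Core CuO 40 + OVA gave Ccl2 levels of 12.52, 13.14 and 13.85, of which 1 lay within the OVA controls, and a log2 fold change of 3.17 (SE 0.66, adjusted p = 0.0139), which was 1.6 and still called with slide and position terms and was not called with 75th percentile scaling (adjusted p = 0.114). CuO COOH 40 + OVA was at 13.31, 13.80 and 13.98 (2.34, SE 0.47, adjusted p = 0.00365), and CuO PEG 40 + OVA at 13.35, 13.79 and 13.97 (2.69, SE 0.55, adjusted p = 0.0269), a call lost with controls of the same slides (adjusted p = 0.105) and with 75th percentile scaling (adjusted p = 0.409). CuO PEG 2.5 + OVA lay at 11.01, 11.44 and 11.48, inside the OVA controls, with a change of -0.03 (95% interval -1.10 to 1.04).

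The fitted values at CuO 2.5 + OVA rested on 1 sample and had the largest standard errors (0.97 for Ccl2). There the Ccl2 value was 0.98, and it was -0.15 with slide and position terms. The same model gave 1.2 against 2.06 at CuO 10 + OVA and 0.31 against 1.14 at CuO COOH 2.5 + OVA, none of them called in either model. The count of 6 groups fell to 3 without CuO NH3 10 + OVA replicate 3 or OVA replicate 7.

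Ccl7 was called after CuO 40 + OVA (3.12, SE 0.67, adjusted p = 0.0163), CuO COOH 40 + OVA (2.27, SE 0.47, adjusted p = 0.00483), CuO NH3 10 + OVA (2.98, SE 0.52, adjusted p = 0.00279) and CuO NH3 40 + OVA (2.51, SE 0.51, adjusted p = 0.0043). Its levels were 12.05, 12.53 and 12.58 at CuO NH3 10 + OVA and 12.09, 12.39 and 12.72 at CuO COOH 40 + OVA, above the highest OVA control (11.45). At CuO 40 + OVA the levels of 10.86, 11.53 and 12.18 overlapped the controls, and with slide and position terms the value was 1.2 (adjusted p = 0.0825), which ended the call, as did 75th percentile scaling (adjusted p = 0.0881).

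With slide and position terms Ccl7 was also lower at CuO NH3 10 + OVA (2.06, called), CuO 10 + OVA (1.12 against 2.07), CuO COOH 2.5 + OVA (0.26 against 1.24) and CuO PEG 40 + OVA (1.5 against 2.23), and it turned sign at CuO 2.5 + OVA (-0.15 against 1.33) and CuO PEG 2.5 + OVA (-0.47 against 0.07). All but the value at CuO NH3 10 + OVA were called in neither model. The count of 4 groups rose to 7 when OVA replicate 5, CuO NH3 2.5 + OVA replicate 1, CuO NH3 2.5 replicate 1, CuO NH3 40 + OVA replicate 1, CuO PEG 40 replicate 1 or CuO PEG 40 replicate 3 was left out.

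Ccl12 was called after CuO COOH 40 + OVA (1.62, SE 0.35, adjusted p = 0.00635) and CuO NH3 10 + OVA (1.88, SE 0.38, adjusted p = 0.00936). Samples of the former were at 11.74, 12.05 and 12.24, above the highest OVA control (11.21), and those of the latter, of which 1 overlapped the controls, at 11.12, 11.57 and 11.96. Under slide and position terms the CuO NH3 10 + OVA value was 1.08 and called. Both calls were lost with 75th percentile scaling (adjusted p = 0.0568 and 0.114). Uncalled values that moved as far were 0.80 against 1.42 at CuO 10 + OVA, 0.29 against 1.15 at CuO 40 + OVA and 0.86 against 1.47 at CuO PEG 40 + OVA, and the sign turned at CuO 2.5 + OVA (-0.16 against 0.23) and CuO PEG 2.5 + OVA (-0.16 against 0.30). The count of 2 groups was 1 without CuO COOH 40 + OVA replicate 1, CuO NH3 10 + OVA replicate 3, OVA replicate 1 or OVA replicate 7, and 4 without CuO NH3 10 replicate 3 or CuO NH3 40 + OVA replicate 2.

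Ccl8, already high with OVA alone, was called higher in none of the exposed groups. Its log2 fold changes ran from -0.55 to 2.10, with standard errors of 0.54 to 1.15. The CuO 40 + OVA samples were at 13.15, 13.67 and 13.84 and the CuO COOH 40 + OVA samples at 13.37, 13.99 and 14.35, and the former lay below the lowest OVA control (14.35). The highest of the latter was equal to that control after rounding, and without adjustment CuO COOH 40 + OVA samples reached 14.96 and overlapped the OVA controls, which began at 14.31. The fitted value for CuO 40 + OVA was 0.09 (95% interval -1.57 to 1.75) with array terms but -1.67 (SE 0.52, adjusted p = 0.0233) with slide and position terms, where it was called lower. For CuO COOH 40 + OVA the values were -0.43 and -1.32 (adjusted p = 0.052).

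The direction of Ccl8 at core CuO 40 + OVA therefore depended on the model and was not settled. The other values of Ccl8 that moved past 1.5-fold, none called in either model, were 2.10 to 0.13 at CuO 10 + OVA, 1.05 to 0.18 at CuO 2.5 + OVA, 0.39 to -0.32 at CuO COOH 2.5 + OVA, 1.77 to 0.47 at CuO NH3 10 + OVA, 0.61 to -0.10 at CuO PEG 2.5 + OVA and 0.67 to -0.45 at CuO PEG 40 + OVA. In CuO NH3 40 + OVA, Ccl8 lay at 14.85, 15.05 and 15.09 and in CuO NH3 2.5 + OVA at 15.53, 16.47 and 16.74.

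Ccr2 in OVA-challenged mice changed by -0.09 to 0.54, with standard errors of 0.20 to 0.42, and no exposed group was separated from the OVA controls. Signs turned with slide and position terms at CuO 40 + OVA (-0.49 against 0.08) and CuO NH3 10 + OVA (-0.25 against 0.20). CuO 40 + OVA samples were at 8.90, 9.03 and 9.36 and CuO PEG 10 + OVA samples at 9.75, 9.96 and 10.06, the lowest and highest group means of OVA-challenged mice.

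**Figure D3:**
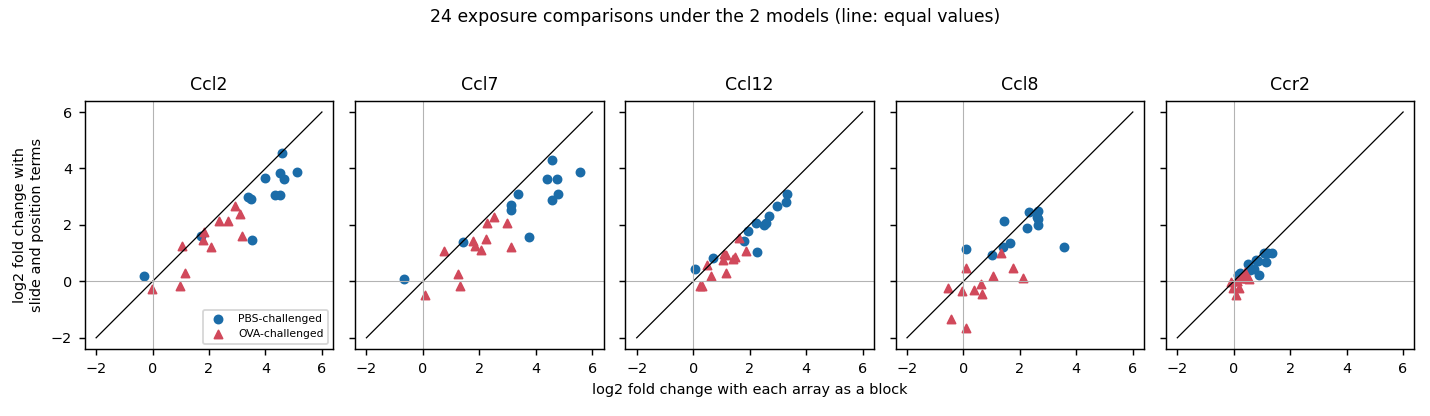
Log2 fold change of the 5 genes in the 24 exposed groups with slide and position terms (vertical axis) against that with array terms (horizontal axis), on log2 scales. Points are PBS-challenged and triangles OVA-challenged groups, and the line marks equal values; the Ccl8 triangle at 0.09 on the horizontal axis lies at -1.67 on the vertical axis.

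Most exposure values were smaller with slide and position terms than with array terms: for Ccl2 in 11 of 12 PBS-challenged and 11 of 12 OVA-challenged groups, for Ccl7 in 10 and 11, for Ccl12 in 10 and 11, for Ccl8 in 9 and 10 and for Ccr2 in 9 and 11. The plot of values under both models shows these below the line. The cause was not tested.

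Whether exposure acted differently in the 2 challenge states was tested as an interaction at 10 and 40 µg/mouse, the log2 fold change under OVA less that under PBS, 8 comparisons for each gene that share both control groups. The differences ran from -2.72 to -0.66 for Ccl2, from -2.97 to -0.40 for Ccl7, from -3.17 to -0.54 for Ccl8, from -2.21 to -0.22 for Ccl12 and from -1.44 to 0.25 for Ccr2. The called differences were 1 each for Ccl8, Ccl12 and Ccr2, and none for Ccl2 and Ccl7, for which limma gave an unadjusted p under 0.05 in 6 of 8 each. Among all genes, 0% and 1.11% were called in either direction for CuO at 10 and 40 µg/mouse, 0.240% and 1.14% for CuO COOH, 0.131% and 1.58% for CuO NH3, and 0% and 0% for CuO PEG. An unadjusted p under 0.05 was found for 1202 genes at CuO 10, 1679 at CuO PEG 10 and 1121 at CuO PEG 40.

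For CuO NH3 40, Ccl8 changed by 2.62 under PBS and by -0.55 under OVA, a difference of -3.17 (SE 0.78, adjusted p = 0.0349), and Ccl12 with 3.31 and 1.09, a difference of -2.21 (SE 0.49, adjusted p = 0.0157). For CuO COOH 40, Ccr2 responded with 1.35 and -0.09, a difference of -1.44 (SE 0.33, adjusted p = 0.0299). These were the differences called. They were lost with single samples left out: that of Ccl8 in 11 of the 21 fits without 1 sample of the 4 groups compared, that of Ccl12 in 5 of 21 and that of Ccr2 in 8 of 21. Over all 89 fits, samples of other groups included, the count of called differences fell to 0 in 26 for Ccl8, 8 for Ccl12 and 18 for Ccr2. Without 1 sample the Ccr2 value ran from -2.67 (without PBS replicate 1) to -0.78 (without CuO COOH 40 replicate 1).

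Among the differences not called, those of Ccl2 were -1.93 (95% interval -3.49 to -0.38) for CuO 40, -2.32 (-3.92 to -0.71) for CuO COOH 40, -1.66 (-3.05 to -0.28) for CuO NH3 40 and -1.84 (-3.50 to -0.18) for CuO PEG 40. For Ccl7 they were -2.43, -2.48, -2.06 and -2.17, each with an interval below 0 and an adjusted p of 0.141 or higher. Ccl12 at CuO 40 was at -2.15 (adjusted p = 0.0602). With slide and position terms, the called counts of 8 became 2 for Ccl2, 2 for Ccl7, 5 for Ccl8, 2 for Ccl12 and 5 for Ccr2. Values that moved past 1.5-fold were then -1.58 at CuO COOH 10 and -1.51 at CuO COOH 40 for Ccl2, -1.77 at CuO 10, -1.84 at CuO COOH 10, -1.54 at CuO COOH 40 and -1.05 at CuO NH3 10 for Ccl7, and -0.98 at CuO NH3 10 for Ccl12. For Ccl8 they were -1.88 at CuO 10, -3.04 at CuO 40, -2.54 at CuO COOH 40, -2.01 at CuO NH3 10, -2.51 at CuO NH3 40 and -2.60 at CuO PEG 40.

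**Figure D4:**
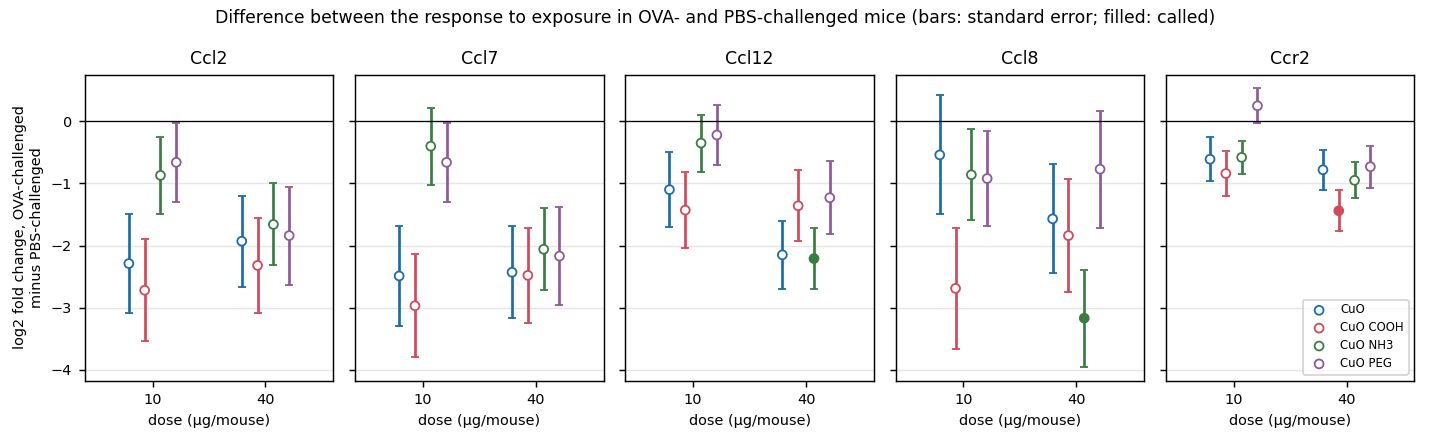
Difference of the fitted log2 fold change between OVA- and PBS-challenged mice (vertical axis) for the 5 genes at 10 and 40 µg/mouse (horizontal axis), by material. Bars are standard errors and filled points were called: Ccl8 (-3.17) and Ccl12 (-2.21) for CuO NH3 40 and Ccr2 (-1.44) for CuO COOH 40.

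The materials differ in surface group, and the paper reports that they also differ in copper content, aggregate size and dissolution rate. These properties cannot be told apart here. Each modified material was set against core CuO at the same dose and challenge, 18 pairs for each gene. The pair differences were fitted with dye, slide and position, and p-values were adjusted over all genes within a pair. CuO NH3 and CuO PEG shared no slide with CuO, so those pairs are tied only through the controls. Of the 18 pairs, 1 was called for Ccl2 and for Ccl7 and 0 for Ccl8, Ccl12 and Ccr2, for which 1, 4 and 5 pairs had an unadjusted p under 0.05 in limma. Among all genes of PBS-challenged mice, 0.188%, 0.0175% and 0.113% were called in either direction for CuO COOH against CuO at 2.5, 10 and 40 µg/mouse, 0%, 0.161% and 0.131% for CuO NH3, and 1.86%, 1.07% and 4.40% for CuO PEG. In OVA-challenged mice the shares were 0%, 0.00436% and 0.371% for CuO COOH, 0%, 0% and 0.415% for CuO NH3, and 0.00436%, 0% and 0.402% for CuO PEG. In the 5 pairs with none called, an unadjusted p under 0.05 was found for 1154 genes (CuO NH3 2.5), 1009 (CuO COOH 2.5 + OVA), 1250 (CuO NH3 2.5 + OVA), 1557 (CuO NH3 10 + OVA) and 1434 (CuO PEG 10 + OVA).

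CuO PEG went with lower Ccl2 and Ccl7 than core CuO at the lowest dose, at equal mass but not equal copper. CuO PEG 2.5 was below CuO 2.5 by a log2 difference of -2.73 (SE 0.57, adjusted p = 0.00229) for Ccl2 and -2.62 (SE 0.62, adjusted p = 0.00717) for Ccl7. The 3 CuO PEG samples (8.75 to 9.05 for Ccl2 and 6.60 to 7.04 for Ccl7) lay below the 3 CuO samples (11.25 to 11.90 and 8.90 to 9.84). Without CuO 2.5 replicate 3 the Ccl7 call was lost. With dye and array terms the differences were -3.80 and -3.79, both called.

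Ccl12 differed by -1.35 (SE 0.45, adjusted p = 0.0781) in the same pair, Ccl8 by -0.74 (95% interval -2.13 to 0.64) and Ccr2 by -0.32 (-0.77 to 0.14). At 10 µg/mouse the CuO PEG difference was -1.48 for Ccl2 (95% interval -2.53 to -0.43, adjusted p = 0.132), -1.47 for Ccl7 (-2.60 to -0.34) and -1.15 for Ccl12 (-1.97 to -0.34), none called. At 40 µg/mouse it was -0.05 for Ccl2 (-1.13 to 1.04), -0.24 for Ccl7 (-1.40 to 0.93) and 0.28 for Ccr2 (-0.16 to 0.71). With dye and array terms the values were -2.15 for Ccl8 at 2.5 µg/mouse, -2.62 for Ccl2, -3.15 for Ccl7 and -1.80 for Ccl12 at 10 µg/mouse and -1.14 for Ccl7 at 40 µg/mouse, none called. With array as a random block, the differences at 10 µg/mouse were called for Ccl2 (-2.2), Ccl7 (-1.80) and Ccl12 (-1.43). That fit holds no slide term, so the material and the slide set cannot be told apart in it.

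CuO COOH and CuO NH3 gave no called difference from core CuO in PBS-challenged mice. CuO COOH 2.5 was below CuO 2.5 by -1.43 for Ccl2 (95% interval -2.35 to -0.52, adjusted p = 0.144), and the value with dye and array terms was 0.07. At 40 µg/mouse CuO COOH differed from CuO by -0.24 for Ccl2 (-1.14 to 0.66) and -0.27 for Ccl7 (-1.23 to 0.70), and CuO NH3 by 0.67 (-0.43 to 1.77) and 0.41 (-0.78 to 1.6), the latter values turning to -0.52 and -0.98 with dye and array terms. In OVA-challenged mice, CuO NH3 2.5 + OVA exceeded CuO 2.5 + OVA in Ccl2 by 1.90 (0.69 to 3.10, adjusted p = 0.778) and CuO COOH 40 + OVA exceeded CuO 40 + OVA in Ccl12 by 1.25 (0.49 to 2.01, adjusted p = 0.116), against 0.85 and 0.47 with dye and array terms. In CuO PEG 40 + OVA the difference was 0.53 for Ccl2 (-0.64 to 1.71) and 1.22 for Ccl8 (-0.20 to 2.64), against -0.47 and 0.58 with dye and array terms.

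Across the 26 groups, mean Ccl2 was highest in CuO NH3 40 + OVA (14.24 ± 0.91, SD, n = 3) and CuO NH3 10 + OVA (13.95 ± 0.17), which differed by less than the spread of the former, and lowest in PBS (8.70 ± 0.62, n = 7) and CuO PEG 2.5 (8.88 ± 0.15), which differed by less than 1 SD of PBS. CuO 2.5 (11.61 ± 0.33), OVA (11.57 ± 0.57, n = 8) and CuO 2.5 + OVA (11.43 ± 0.43) stood next to each other in the order. For Ccl7 the same groups stood lowest, PBS (6.74 ± 0.49) and CuO PEG 2.5 (6.83 ± 0.22), and CuO NH3 40 + OVA (12.60 ± 1.04) highest, followed by CuO COOH 40 + OVA (12.40 ± 0.32).

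On the adjusted scale, Ccl8 and Ccr2 were ordered by challenge. All 13 OVA-challenged groups had a higher mean than all 13 PBS-challenged groups, with the nearest means at 13.55 ± 0.36 (CuO 40 + OVA) and 11.31 ± 0.28 (CuO NH3 10) for Ccl8 and at 9.10 ± 0.23 (CuO 40 + OVA) and 8.94 ± 0.10 (CuO PEG 40) for Ccr2. The last 2 means differed by less than 1 SD of CuO 40 + OVA. Without adjustment the Ccr2 order did not hold across slide sets. CuO NH3 10 + OVA samples then ran from 8.78 to 9.2 and CuO COOH 40 samples from 9.19 to 9.57. For Ccl12, the lowest OVA-challenged mean, CuO PEG 2.5 + OVA (10.31 ± 0.17), and the highest PBS-challenged mean, CuO NH3 40 (10.25 ± 0.37), were within 1 SD. CuO COOH 40 + OVA (12.01 ± 0.25) was highest and PBS (7.15 ± 0.42) lowest.

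Group means of the members were set against those of 15438 genes well above background in at least 50% of the samples, over the 26 groups, as a description. The groups share slides and challenge states. Ccl2 was most like Ccl7 (Pearson r = 0.972), Msr1 (a macrophage scavenger receptor, 0.958), Clec5a (a myeloid lectin, 0.952), Mydgf (0.951) and Dclk1 (0.940). Ccl7 was most like Cstb (a cathepsin inhibitor, 0.973), Ccl2, Nfkb2 (an NF-kB subunit, 0.966), Emilin2 (0.965) and Dclk1 (0.963).

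Ccl12 was most like Ms4a6d (0.990), Tgfbi (0.980), C3ar1 (the receptor of complement C3a, 0.980), Frrs1 (0.978) and Lilrb4a (0.976). Among the genes most like Ccl8 were Nckap1l (0.985), Lpxn (0.981), Cotl1 (0.979) and Gatm (0.979), and Ccr2 was most like Ly86 (0.960), P2ry6 (0.960), Fcgr2b (an inhibitory Fc receptor, 0.957), Cfp (properdin, 0.954) and Evi2a (0.953). Between members, r was 0.961 for Ccl7 and Ccl12, 0.927 for Ccl8 and Ccr2 and 0.597 for Ccl2 and Ccl8.

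Of 17 other CC chemokines, 5 rose and 1 fell after CuO 40 (median log2 fold change 0.01, against 0.01 over all genes), and 9 rose and none fell with OVA (median 0.78, against -0.01). Among all genes, 8% were called higher after CuO 40 and 3.74% with OVA. After CuO 40 the leading other CC chemokines were Ccl4 (3.2, SE 0.69), Ccl3 (2.92, SE 0.49) and Ccl20 (2.91, SE 0.39). Ccl4 and Ccl3 are attractants of macrophages and T cells, and Ccl20 is the ligand of CCR6. Each was below the values of Ccl2 and Ccl7 and above that of Ccl8 (1.66). With OVA the leading ones were Ccl24 (4.26, SE 0.35), an eosinophil attractant, Ccl9 (3.25, SE 0.19) and Ccl17 (2.27, SE 0.25), a ligand of CCR4. Each was below the value of Ccl8, but Ccl24 was above those of Ccl7 (3.53), Ccl12 (3.22) and Ccl2 (2.89). Ccl9 was also above the values of Ccl12 and Ccl2. Ccl26, Ccl22 and Ccl28 were well above background in 4, 18 and 34 of 89 samples. Of 14 other receptors, Ackr1 rose with OVA (1.38), and the atypical receptor Ackr4 (-1.62) and the lymph node homing receptor Ccr7 (-1.58) fell after CuO 40. In all, 2 receptors rose and 3 fell after CuO 40 and 2 rose with OVA.

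Of 14 cytokines known to induce these ligands, 5 rose after CuO 40 and 5 with OVA, and none fell in either. They were led by Il6 (2.54), Il1b (2.05) and the epithelial alarmin Il33 (1.90) after CuO 40, and by Il6 (1.49), Il33 (1.42) and Ifng (1.36) with OVA. Il13, Il17a and Ifnb1 were well above background in 1, 8 and 9 of 89 samples, so a change in them could hardly be seen. Of 12 measured interferon-stimulated genes, Cxcl10 was the 1 that rose after CuO 40 (2.76, SE 0.95, adjusted p = 0.0479 in limma). That count was near the share of all genes called higher after CuO 40 (8%). Cxcl10 (2.99), Cxcl9 (2.65) and Oas1a (1.44) rose with OVA. Of 11 genes of CCR2 signalling and monocyte migration, the arrestin Arrb1 fell after CuO 40 (-0.76) and the integrin Itgb2 rose with OVA (0.77).

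Cell type markers moved with these results, and their part in them was not tested. Over all genes, 8% were called higher after CuO 40 and 3.74% with OVA. The share of all genes called lower is not given, so marker falls have no such baseline here. Of 18 genes of monocytes and monocyte-derived macrophages, 7 rose and 1 fell after CuO 40 (median 0.83), led by Cd14 (3.30), Vcan (1.87) and F13a1 (1.71), and 9 rose with OVA (median 0.78), among them Chil3 (3.93) and Ms4a7 (2.28). Their mean log2 level ran from 10.03 to 10.21 in PBS, 10.66 to 10.84 in CuO 40, 10.85 to 11.18 in OVA and 11.06 to 11.17 in CuO 40 + OVA samples, and 17 of 18 were well above background in at least 50% of the samples. Alveolar macrophage markers (10 of 10 well above background) fell in 5 of 10 after CuO 40, led by Ear2 (-4.19), Ear1 (-4.11) and Krt79 (-1.55), and their mean level ran from 10.22 to 10.43 in PBS and from 8.99 to 9.08 in CuO 40 samples.

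After CuO 40, neutrophil markers rose in 5 of 9 and fell in 1, with Mmp8 at 3.45, S100a8 at 2.41 and Cxcr2 at 2.39, and their mean level ran from 9.69 to 10.06 in PBS and from 10.51 to 10.84 in CuO 40 samples. Eosinophil markers fell in 3 of 8 after CuO 40 (Ear11 at -3.11, Ear6 at -1.51 and Siglecf at -1.43) and rose in 4 of 8 with OVA (Ear11 at 1.82, Prg2 at 1.35 and Alox15 at 1.34), with mean levels of 7.32 to 7.79 in PBS and 8.50 to 9.30 in OVA samples. Fibroblast markers rose in 3 of 5 and fell in 1 after CuO 40 (Col1a1 at 2.08, Col3a1 at 2.00 and Col1a2 at 1.17).

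Other markers fell or moved little. Their falls likewise stand without a share of all genes called lower. Rises stand beside 8% of all genes called higher after CuO 40 and 3.74% with OVA. After CuO 40, T cell markers fell in 4 of 7 (Cd3d at -1.95, Cd28 at -1.52 and Cd3g at -1.41), B cell markers in 3 of 5 (among them Ms4a1 at -1.98 and Cd79b at -1.77), endothelial markers in 5 of 6 (Kdr at -1.68, Tek and Cldn5 at -1.37) and red cell markers in 3 of 4 (Hbb-bt at -3.74, Alas2 at -3.41 and Hba-a1 at -3.38). Dendritic cell markers rose in 1 of 7 (Ccl17 at 1.27) and fell in 1 (Clec9a at -1.39), and epithelial markers rose in 1 of 8 (Foxj1 at 1.55). With OVA, the markers of alveolar macrophages rose in 2 of 10 (Mrc1 at 1.55 and Itgax at 1.2), dendritic cells in 4 of 7 (led by Ccl17 at 2.27, Cd209d at 1.86 and Flt3 at 0.77), T cells in 2 of 7 (Cd3g at 0.82 and Lck at 0.62), neutrophils in 1 of 9 (Retnlg at 1.04) and fibroblasts in 2 of 5 (Col3a1 at 1.01 and Col1a1 at 0.86, with Pdgfra lower at -0.95). Endothelial markers fell in 3 of 6 (Tek at -0.82, Kdr at -0.70 and Cldn5 at -0.62), Sftpb fell among 8 epithelial markers (-0.64), and no B cell or red cell marker was called. Siglecf, Ccr1, Ccr3 and Ccl17 each stand in more than 1 list.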

How the data were processed

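Lung RNA pools were hybridised to two-colour 60k mouse arrays, 1 sample per channel, and scanned images were read by the authors with Agilent Feature Extraction 12.0.2.2, per the file headers. The deposited scanner files give intensity per spot, and the deposited series table gives log2 values that rank each sample's spots exactly as its own channel does. Here the log2 median foreground of non-control spots was quantile normalized over 89 samples, without outlier-flagged spots, and averaged to probes and genes. RefSeq (GRCm38.p6) accessions named 32994 of 56605 probes and 22911 genes. With limma 3.58.1 (R 4.3.3), 1 model held all 26 groups, with dye and array (17 residual degrees of freedom) or, between materials, with dye, slide and position (50). Alternatives were other scalings, normexp (offset 50), the deposited log2 table, dim probes left out, array as a random block, controls of the same slides, other terms and each sample left out. The fits were tested on simulated data. Named genes were the members, the 3 called genes of each list with the largest change after CuO 40 and with OVA, and the 5 most alike genes per member. Members and lists were chosen with earlier results of these data known. Mx1, Ly6g and Trbc2 were not matched, and Ear11 was matched through a synonym. Some genes that this rule names are not reported here.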

Additional observations from a re-analysis of the deposited data

Results flagged for a closer look

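A test of the difference itself set apart 3 results, in which exposure changed a gene differently in OVA-challenged and PBS-challenged mice by the limma interaction. For CuO NH3 40, Ccl8 differed by -3.17 on the log2 scale (SE 0.78, adjusted p = 0.0349) and ran from -3.70 to -2.66 with single samples of the compared groups left out. In the same material and dose, Ccl12 differed by -2.21 (SE 0.49, adjusted p = 0.0157), with a range of -2.86 to -1.77. For CuO COOH 40, Ccr2 differed by -1.44 (SE 0.33, adjusted p = 0.0299), with a range of -2.67 to -0.78. With 75th percentile scaling the values were -2.68 (adjusted p = 0.444) for Ccl8, -2.0 (adjusted p = 0.191) for Ccl12 and -1.41 (adjusted p = 0.256) for Ccr2, and none was called. With controls of the same slides, the Ccr2 value was -1.48 (adjusted p = 0.0655) and was not called. Among 20 sets of levels in groups of 4 to 8 samples, none held a sample that stood far from the others by Dixon's criterion, where chance would single out about 1 in 20.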

How the results depend on the processing

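All 5 genes were called higher with OVA in each alternative that gave that comparison. Other counts moved. With 75th percentile scaling, Ccl2 was called in 3 and Ccl12 in 0 of 12 OVA-challenged groups, Ccr2 in 2 of 12 PBS-challenged groups, and Ccl8, Ccl12 and Ccr2 in 0 of 8 interactions. With array as a random block, Ccl8 was called in 10 PBS-challenged groups. Of the OVA-challenged groups, Ccl7 was called in 9, Ccl12 in 7 and Ccl8 in 1, where Ccl8 was lower (-1.31). The interactions gave 5 for Ccl2, 3 for Ccl7, 4 for Ccl8, 3 for Ccl12 and 3 for Ccr2. The material pairs gave 2, 2, 1, 2 and 5 in that order. This fit holds no slide term, so the difference between slide sets enters its pairs of CuO NH3 or CuO PEG with CuO. With controls of the same slides only, Ccr2 was called in 2 PBS-challenged groups, and the interactions gave 1 for Ccl2, 1 for Ccl7 and 0 for Ccr2. With dye, slide and position, Ccl8 was called higher in 8 PBS-challenged groups and lower in 1 OVA-challenged group (-1.67). The interactions then gave 2, 2, 5, 2 and 5. The cause was not tested.

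Same-number samples were somewhat more alike than others, but samples were not treated as paired by replicate number. Deviations of 984 same-number pairs had a mean r of 0.065, with 37.7% over 0.1. For 2805 other pairs the values were -0.022 and 19.9%. Most samples numbered 1, 2 and 3 lay on slides 1 or 4, 2 or 5 and 3 or 6, so number and slide within a set cannot be told apart here. Controls numbered 1 to 3 lay on slides 1 to 3, while CuO NH3 and CuO PEG samples lay on slides 4 to 6. The replicate block therefore sets these materials largely against controls, and against CuO samples, of the other slide set. With the replicate block (replicate number and dye, no slide term), Ccl8 was called in 8 PBS-challenged groups. Of the OVA-challenged groups, Ccl12 was called higher in 4. Ccl8 was called lower in 2 of them (-1.86 and -1.44) and Ccr2 lower in 6 (-1.14 to -0.59). The interactions gave 4, 2, 4, 2 and 4 and the material pairs 3, 3, 2, 2 and 8 for Ccl2, Ccl7, Ccl8, Ccl12 and Ccr2.

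Ccl8 in CuO 40 + OVA against OVA turned from 0.09 to -1.31 with array as a random block, -1.67 with slide and position and -1.86 with the replicate block. Ccr2 turned negative with the replicate block against PBS for CuO NH3 10 (-0.08), CuO PEG 2.5 (-0.59) and CuO PEG 10 (-0.65), against OVA for CuO NH3 2.5 + OVA (-0.86), CuO NH3 10 + OVA (-1.14), CuO NH3 40 + OVA (-0.92), CuO PEG 2.5 + OVA (-0.72), CuO PEG 10 + OVA (-0.59) and CuO PEG 40 + OVA (-0.61), and against core CuO for CuO NH3 40 (-0.66), CuO PEG 40 (-0.58) and CuO PEG 2.5 + OVA (-0.77, and -0.78 with array as a random block). These CuO NH3 and CuO PEG samples lay on slides 4 to 6, and neither block holds a slide term. Unadjusted Ccr2 controls averaged 8.33 (PBS) and 10.13 (OVA) on slides 1 to 3 and 7.63 and 8.97 on slides 4 to 6. The part of this in the sign changes was not tested. Other sign changes were in values not called, 117 of 1331 under alternatives and 106 of 2043 with a sample left out.

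With each of 89 samples left out, calls in PBS-challenged groups ran from 8 to 11 for Ccl2 and Ccl7, 1 to 6 for Ccl8, 6 to 10 for Ccl12 and 2 to 8 for Ccr2. In OVA-challenged groups they ran from 3 to 7 for Ccl2 and Ccl7, 1 to 4 for Ccl12 and stayed at 0 for Ccl8 and Ccr2. In interactions they were 0 for Ccl2, 0 to 1 for Ccl7 (1 without CuO NH3 10 replicate 3 or CuO NH3 40 + OVA replicate 2) and Ccl8, and 0 to 2 for Ccl12 and Ccr2. In material pairs they were 1 for Ccl2, 0 to 1 for Ccl7, 0 to 2 for Ccl12 (1 without CuO 10 replicate 1, CuO 2.5 replicate 1 or CuO 40 + OVA replicate 2, and 2 without CuO PEG 10 replicate 1 or OVA replicate 7) and 0 for Ccl8 and Ccr2. Choosing among probes of a gene gave no values, since each gene had 1 probe.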
